A study of Homo sapiens with 6 samples.

Results

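The C/EBP genes measured were CEBPA, CEBPB, CEBPD, CEBPG and CEBPZ. Their probe sets were taken as those that the platform annotation assigns to 1 gene symbol only, that symbol being one of these 5. This gave 7 of the 54613 probe sets other than controls, and 5 of the 19775 genes named in this way. The RNA came from U251, an established human glioma cell line, plated on electrospun poly-caprolactone nanofibers in dishes of 60 mm. The 3 aligned cultures lay on highly aligned fibers and the 3 random cultures on fibers without a common orientation. Both groups were kept for 24 h in DMEM with 10% fetal bovine serum and received no other treatment, and each culture was read on 1 Affymetrix array. The study asked which genes follow the topography under migrating glioma cells. U251 is 1 line, no flat surface was analysed here, and the cultures are described as independent.

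C/EBP proteins bind DNA as pairs held by a leucine zipper, next to a basic region that contacts the CCAAT-related site. C/EBP alpha drives differentiation of fat, liver and myeloid cells, whereas C/EBP beta and delta are induced by interleukin 6, interleukin 1 and stress and switch on inflammatory genes. C/EBP gamma lacks most of the activation region and acts mainly as a partner, of C/EBP beta or of ATF4, on composite elements of the amino acid response. CEBPZ carries the name but encodes a CCAAT-binding protein without a leucine zipper, with a role in the nucleolus. In mesenchymal glioblastoma C/EBP beta has been described beside STAT3 as a regulator of the tumour's expression programme.

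Expression is given in log2 units as deposited, in which 1 unit is a doubling of signal. Probes differ in brightness, so levels of different probe sets are not compared. Dim probe sets were set aside by requiring a value above the median of the array on 3 or more of the 6 arrays. Of the 7 C/EBP probe sets 6 were kept, so each of the 5 genes had at least 1, and CEBPG had 2. The family was selected on the aligned minus random differences, in which CEBPB and CEBPD had been noted for opposite signs. Their differences are therefore a description without a test. In RNA from whole cultures, fewer cells of a type and less RNA per cell cannot be told apart.

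The array of aligned 3 stood apart before any C/EBP gene was considered. On the first principal component of the 12381 genes tested, which held 62.0% of the variance, it lay at 31.6 and the other arrays between -11.7 and 6.33. Of 6 glial markers GFAP, VIM, NES, CD44 and SOX9 were kept and S100B was not, and the mean of the list ran from 9.50 to 10.06 on aligned and from 10.08 to 10.40 on random fibers. PTPRC, CD14, ITGAM and CSF1R of myeloid cells, CDH5 of endothelium, EPCAM, CDH1 and KRT19 of epithelium, SYP and STMN2 of neurons and MOG of oligodendrocytes were not kept, while AIF1, PECAM1, VWF, KDR, RBFOX3, SNAP25 and MBP were. The list means on aligned and random fibers ran from 5.02 to 5.07 and from 4.89 to 5.00 for myeloid, from 5.35 to 5.74 and from 5.38 to 5.56 for endothelial, from 3.78 to 3.79 and from 3.72 to 3.93 for epithelial, from 5.26 to 5.34 and from 5.18 to 5.24 for neuronal, and from 5.61 to 5.75 and from 5.65 to 5.67 for oligodendroglial markers. The glial, myeloid and neuronal means did not overlap between the groups, and their part in the values below was not tested. Single kept probe sets lay apart in this way in 7.61% (aligned above) and 8.86% (aligned below). The myeloid and neuronal means lay below the median of every array, 5.63 to 5.66. The list means include markers not kept. All the glial ones were lower in sign on aligned fibers. S100B, GFAP, SOX9 and NES differed by -1.13, -0.81, -0.53 and -0.24, and VIM and CD44 by -0.09 and -0.11. Of the 5 kept, 1 had an unadjusted p under 0.05 in limma, against 10.5% of all genes.

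Upstream sequences are shown for CEBPB and CEBPG because these genes followed each other over the 6 arrays, and because CEBPG is tied to the composite element. The RefSeq promoter table of build GRCh38.p14 held windows of 250 bases before to 50 bases after a start site for CEBPA, CEBPB, CEBPG and CEBPZ, 6 windows in all, and CEBPD was not matched. The 250 bases before the second listed start of each gene follow, 5′ to 3′ on the plus strand, with matches in capitals. Each of these starts lies downstream of the first listed one.
CEBPB, chr20:50190580-50190829: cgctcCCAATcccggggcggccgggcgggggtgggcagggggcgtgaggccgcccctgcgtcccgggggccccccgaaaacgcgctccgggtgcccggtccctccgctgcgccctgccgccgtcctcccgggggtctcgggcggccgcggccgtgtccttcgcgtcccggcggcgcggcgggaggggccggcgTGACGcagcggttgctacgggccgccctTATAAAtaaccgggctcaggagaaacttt
CEBPG, chr19:33373863-33374112: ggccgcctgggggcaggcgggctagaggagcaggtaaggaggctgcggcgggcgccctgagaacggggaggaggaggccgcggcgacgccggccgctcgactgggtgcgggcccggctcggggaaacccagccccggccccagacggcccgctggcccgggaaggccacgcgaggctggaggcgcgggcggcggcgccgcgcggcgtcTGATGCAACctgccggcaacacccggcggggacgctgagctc
The capitals mark TGATGNAAN, the composite C/EBP and ATF element, TGACG, the cyclic AMP response half-site, the CCAAT box, and the TATA box TATAAA, each searched on both strands. In the CEBPG window the composite element began at position -42 from the start, and in the CEBPB window the half-site began at -57 and the TATA box at -29.

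The composite element occurred in 3.61% of the 35116 windows of the table and in 1 of the 6 C/EBP windows. TGACG was in 24.6% of all windows, CCAAT in 34.6% and TATAAA in 11.5%. The first CEBPG window held CCAAT on the minus strand at -85 and -24, the CEBPA window held TATAAA at -30, and the CEBPZ window held TGACG at -174. None of the 6 C/EBP windows held TTNNGNAA, a loose form of the C/EBP site found in 36.8% of all windows, or TTGCGCAA, its palindrome found in 0.151%, which is itself a case of the loose form. No printed match overlapped another. A match describes these letters only and is not evidence of binding.

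CEBPG, the partner subunit, had the widest difference of the family and the same profile in both of its probe sets. Probe set 225527_at read 9.95, 10.16 and 10.75 on aligned 1, 2 and 3 and 9.87, 9.58 and 9.58 on random 1, 2 and 3. Probe set 204203_at read 9.74, 9.94 and 10.49 on aligned and 9.58, 9.26 and 9.43 on random fibers. In both, every aligned value exceeded every random value, aligned 3 was the highest, and aligned 1 and random 1 were nearest to each other, 0.08 apart in 225527_at and 0.15 in 204203_at.

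The group means of CEBPG were 10.28 ± 0.41 against 9.68 ± 0.16 in 225527_at and 10.05 ± 0.39 against 9.43 ± 0.16 in 204203_at (SD, n = 3 each). The log2 difference was 0.60 ± 0.20 and 0.63 ± 0.19 (SE), or 1.52-fold and 1.55-fold higher on aligned fibers. Without aligned 3 it was 0.37 and 0.41, so that array moved both values by more than 1.5 times.

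CEBPB, which encodes the stress- and cytokine-induced activator, had the same sign with groups that touched. Probe set 212501_at, its only one, read 11.65, 11.87 and 12.44 on aligned 1, 2 and 3 and 11.63, 11.34 and 11.65 on random 1, 2 and 3. The groups overlapped, because aligned 1 and random 3 read the same to the second decimal, and again aligned 3 was the highest. The means were 11.99 ± 0.41 and 11.54 ± 0.18 (SD, n = 3 each). The log2 difference was 0.44 ± 0.20 (SE), which is 1.36-fold. Without aligned 3 the difference was 0.22.

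CEBPD, the delta form that shares inducers with CEBPB, had the opposite sign. Probe set 203973_s_at read 7.40, 7.45 and 7.34 on aligned 1, 2 and 3 and 7.69, 7.73 and 8.05 on random 1, 2 and 3. All aligned arrays lay below all random arrays, with a gap of 0.24 between the groups, and here random 3 and not aligned 3 stood farthest out. The means were 7.40 ± 0.06 and 7.83 ± 0.20 (SD, n = 3 each). The log2 difference was -0.43 ± 0.11 (SE), and the level was 1.35-fold higher on random fibers. Without aligned 3 it was -0.40, and without random 3 it was -0.32.

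The other CEBPD probe set, 213006_at, gave no comparable signal. It read 2.84, 2.55 and 2.76 on aligned and 2.69, 2.71 and 2.73 on random fibers, below the median of every array. Its means were 2.71 ± 0.15 and 2.71 ± 0.02 (SD, n = 3 each), and the groups overlapped. The lower CEBPD value on aligned fibers thus rests on 1 probe set, whose suffix marks probes that can match more than 1 transcript.

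CEBPZ, the nucleolar protein outside the zipper family, differed by little but evenly. Probe set 203341_at read 10.95, 10.98 and 10.89 on aligned 1, 2 and 3 and 10.81, 10.85 and 10.73 on random 1, 2 and 3. Every aligned value exceeded every random one, by a gap of 0.04, and aligned 3 was the lowest of its group. The means were 10.94 ± 0.04 and 10.80 ± 0.06 (SD, n = 3 each). The log2 difference was 0.15 ± 0.08 (SE), which is 1.11-fold.

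CEBPA, the differentiation factor, overlapped between the groups. Probe set 204039_at read 6.95, 6.71 and 6.77 on aligned 1, 2 and 3 and 6.99, 6.83 and 7.00 on random 1, 2 and 3. Aligned 1 lay within the random values, and aligned 2 and 3 lay below them. The means were 6.81 ± 0.13 and 6.94 ± 0.09 (SD, n = 3 each). The log2 difference was -0.13 ± 0.10 (SE). Without aligned 1 it was -0.20 and without aligned 2 it was -0.08.

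**Figure D1:**
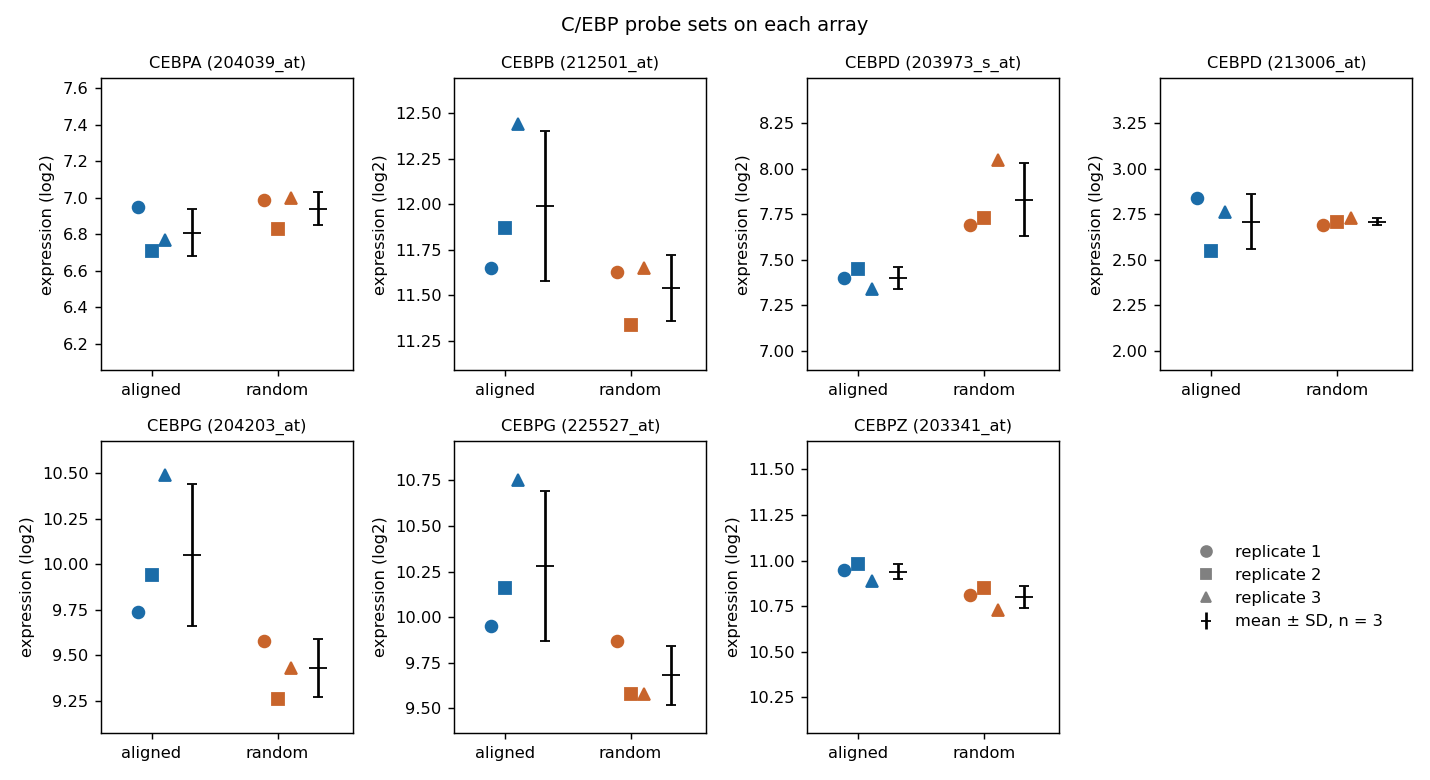
Expression in log2 units of the 7 C/EBP probe sets on each of the 6 arrays, aligned in blue and random in orange, with marker shapes for replicate numbers and black bars for mean ± SD (n = 3). Every panel spans the same number of log2 units but is centred on its own probe set; aligned 3 is the highest array for CEBPB and both CEBPG probe sets, while the aligned points of CEBPD 203973_s_at all lie below the random points.

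Of the 6 kept C/EBP probe sets 3 had no aligned value as low as any random one, both of CEBPG and that of CEBPZ, and 1, that of CEBPD, had every aligned value below the random ones. Over all 27621 kept probe sets the corresponding shares were 7.61% and 8.86%. Since the members were chosen with this contrast known, nothing is read from that count. Over all 12381 genes, limma with Benjamini-Hochberg adjustment called 0 at an adjusted p under 0.05, a share of 0%, so no C/EBP gene passed, and 1303 genes or 10.5% had an unadjusted p under 0.05.

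The differences between arrays of equal number separated CEBPD and CEBPZ from CEBPB and CEBPG. For CEBPB they were 0.02, 0.53 and 0.78 for the numbers 1, 2 and 3, and for CEBPG they were 0.08, 0.57 and 1.16 in 225527_at and 0.15, 0.68 and 1.05 in 204203_at. In these genes the pair numbered 1 had the smallest difference. For CEBPD 203973_s_at they were -0.29, -0.28 and -0.72, and for CEBPZ they were 0.14, 0.13 and 0.16. CEBPZ had the most even values and CEBPD was lower on aligned fibers in 3 of 3 pairs by at least 0.28, as a description of the chosen members. The groups of CEBPD, CEBPZ and CEBPG did not overlap, so any pairing of the arrays gives these signs. CEBPA had -0.04, -0.13 and -0.22.

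**Figure D2:**
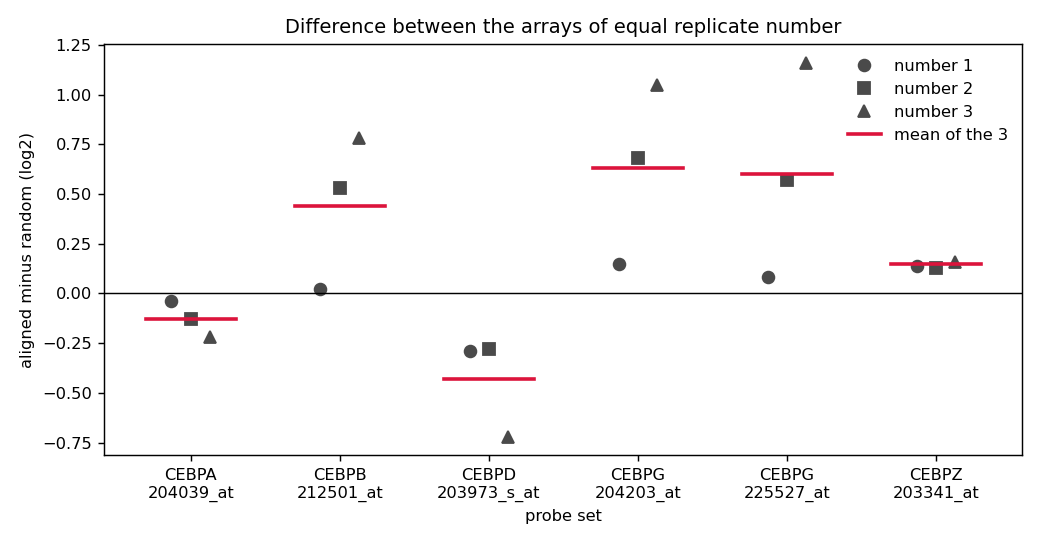
Aligned minus random difference in log2 units between the arrays of replicate number 1 (circle), 2 (square) and 3 (triangle) for each kept C/EBP probe set, with the mean of the 3 as a red line. CEBPB and both CEBPG probe sets run from near 0 for number 1 to between 0.78 and 1.16 for number 3, CEBPZ stays between 0.13 and 0.16, and CEBPD lies below 0 throughout.

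CEBPB and CEBPG followed each other over the arrays. Pearson's r between them was 0.97 with 204203_at and 0.95 with 225527_at over 6 arrays, with a Spearman's rho of 0.83 for both, and r was 0.90 and 0.79 over the 5 arrays without aligned 3. CEBPB and CEBPD had r = -0.58, which was -0.34 without aligned 3. These values describe 6 points that share the group difference and 1 distant array.

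Genes with the profile most like each C/EBP gene were taken as the 3 with the highest Pearson's r over the 6 arrays among the 12381 genes tested. For CEBPG, represented by 225527_at, they were ZDHHC18, KDM4A and S100A6, with r of 0.999, 0.998 and 0.998. For CEBPB they were CALCOCO2, ADCY3 and EOLA1 (0.994, 0.992 and 0.991). For CEBPD they were ID2, CABIN1 and ZFX (0.993, 0.990 and 0.990), of which ID2, an inhibitor of helix-loop-helix factors, differed by -1.12 between the groups. CEBPZ was most like GNL2, a GTPase of ribosome assembly, TNFRSF14 and PSAPL1 (0.995, 0.990 and 0.988), and CEBPA was most like KDELR1, TLE5 and YPEL3 (0.994, 0.992 and 0.981). With 6 arrays and this many genes, values of this height carry no test.

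**Figure D3:**
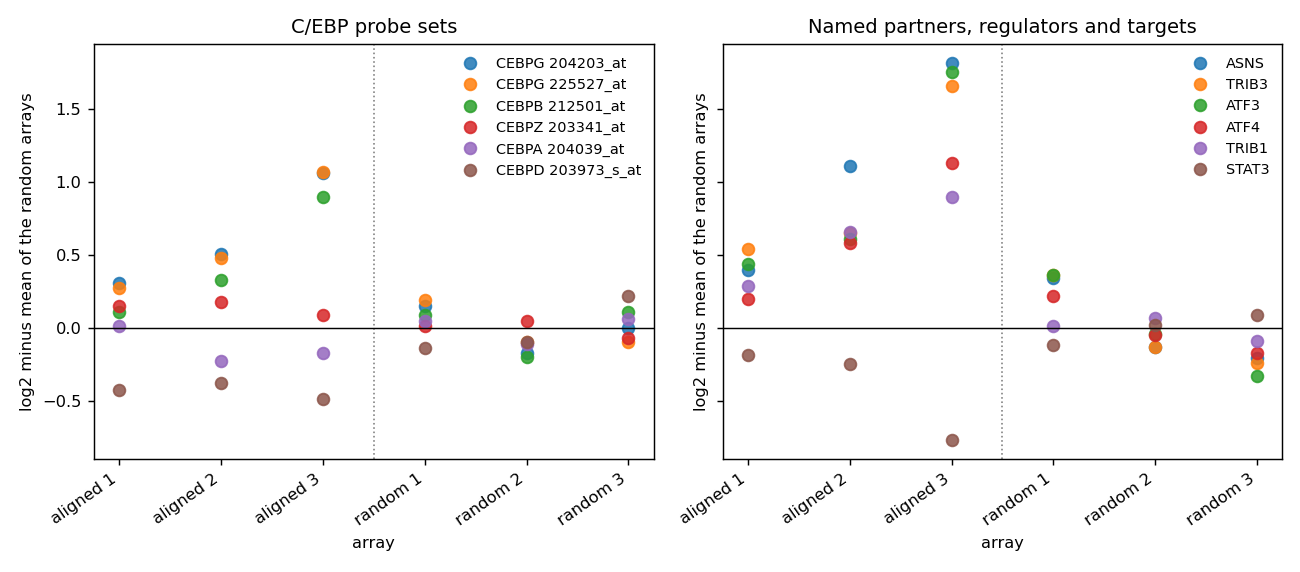
Level on each array minus the mean of the 3 random arrays, in log2 units, for the kept C/EBP probe sets (left) and for ASNS, TRIB3, ATF3, ATF4, TRIB1 and STAT3 (right), with a dotted line between the groups. Aligned 3 is the highest array for CEBPB, CEBPG and the right-hand genes other than STAT3, for which it is the lowest at 10.20 log2 units.

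Genes around the C/EBP factors were described from 7 lists by role, 78 genes in all, of which 54 were tested. Of these 54, 38 had a positive and 16 a negative difference, with a median of 0.10 against 0.01 over all genes tested. At an unadjusted p under 0.05 in limma 14 were higher and 4 lower on aligned fibers. Together these were 33.3%, against 10.5% of all genes, and 0 passed at an adjusted p under 0.05. The lists were chosen with earlier results of these data known, so nothing is read from these shares or from the list counts below. The count of 18 was 9 without random 2 and 8 without random 3. Over all genes the count of 1303 at an unadjusted p under 0.05 was then 739 and 624. Aligned 3 was the distant array, and without it the 2 counts were 16 and 815.

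Among the leucine zipper partners ATF3 and ATF4 had an unadjusted p under 0.05. Of 10 tested partners 2 were higher and 0 lower at that threshold, against 4.72% and 5.81% of all genes, and 9 had a positive sign. The median was 0.20, which was 0.12 without aligned 3 and 0.36 with the stricter filter, the 75th percentile of the array in place of its median. ATF4, the activator of the amino acid response that pairs with C/EBP gamma, read 11.39, 11.77 and 12.32 on aligned and 11.41, 11.14 and 11.02 on random fibers. Aligned 1 lay just under random 1 and the other aligned arrays lay above all random arrays. The log2 difference of ATF4 was 0.64 ± 0.23 (SE; limma unadjusted p = 0.0245, adjusted p = 0.463), and without aligned 3 it was 0.39.

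ATF3, a stress-induced factor of the same class, read 8.45, 8.62 and 9.77 on aligned and 8.37, 7.97 and 7.68 on random fibers, without overlap. Its log2 difference was 0.94 ± 0.34 (SE; limma unadjusted p = 0.0275, adjusted p = 0.463), or 0.53 without aligned 3 and 0.61 without probe sets that can match several transcripts. DDIT3, the inhibitory C/EBP homologue CHOP, was named after its values were seen. So were ATF5, FOS, CEBPE, TRIB2, IL6, IL6ST, HERPUD1, WWTR1 and the other inflammatory targets. DDIT3 differed by 0.36 ± 0.17 with an adjusted p of 0.483 in limma, and by 0.16 without aligned 3. CEBPE, the granulocyte form, differed by 0.03 ± 0.10 with an adjusted p of 0.910 in limma. The count of 2 was 0 without random 2 or random 3, and 5 without aligned 1, of which 4 were higher. A block on the replicate number left 3 genes of the list higher and 0 lower at an unadjusted p under 0.05, but other ones. ATF3 and ATF4 then had unadjusted p of 0.0614 and 0.0552 in limma, while DDIT3, ATF5 and FOS had 0.0359, 0.0253 and 0.0346.

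Of the proteins that control C/EBP factors, the pseudokinase genes TRIB1 and TRIB3 had an unadjusted p under 0.05, and both were higher. Tribbles 1 brings the ubiquitin ligase COP1 to C/EBP alpha, and tribbles 3 is induced by ATF4 and CHOP. TRIB1 read 8.50, 8.87 and 9.11 on aligned and 8.22, 8.28 and 8.12 on random fibers. The groups did not overlap. Its log2 difference was 0.62 ± 0.15 (SE; limma unadjusted p = 0.00386, adjusted p = 0.463), and it was 0.48 without aligned 3.

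TRIB3 read 10.39, 10.50 and 11.51 against 10.21, 9.72 and 9.61, again without overlap. Its log2 difference was 0.95 ± 0.30 (SE; limma unadjusted p = 0.0149, adjusted p = 0.463), or 0.60 without aligned 3. TRIB2, the third tribbles gene, had the opposite sign. It read 11.01, 10.97 and 9.98 on aligned and 11.20, 11.49 and 11.15 on random fibers, without overlap, and aligned 3 was far below the rest. Its log2 difference was -0.63 ± 0.27 (SE; limma unadjusted p = 0.0501, adjusted p = 0.472), or -0.29 without aligned 3. The unadjusted p of TRIB2 was 0.0244 with the replicate block, 0.0447 with median centring and 0.0415 without aligned 3 in limma.

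Of the 10 regulators tested 2 were higher and 0 lower at the unadjusted threshold, against 4.72% and 5.81% of all genes. The median was -0.01, which was 0.03 without aligned 3. The count was 1 without random 3 and 4 without aligned 1, with 2 in each direction.

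The cytokine pathway that induces C/EBP beta and delta had 1 gene higher and 1 lower at an unadjusted p under 0.05. This was among 12 tested, against 4.72% and 5.81% of all genes, and the median of the list was 0.07. IL1R1, the receptor of interleukin 1, read 5.83, 5.95 and 6.24 on aligned and 5.85, 5.39 and 5.52 on random fibers. It overlapped through random 1 and differed by 0.42 ± 0.15 (SE; limma unadjusted p = 0.0240, adjusted p = 0.463). Its values on random 2 and random 3 lay below the median of every array, 5.63 to 5.66. IL1R1 was thus near the limit of the filter and was not kept by the stricter one. STAT3, the transducer of gp130 cytokines, read 10.78, 10.72 and 10.20 on aligned and 10.85, 10.99 and 11.06 on random fibers.

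All STAT3 values on aligned fibers lay below all those on random fibers, by a log2 difference of -0.40 ± 0.16 (SE; limma unadjusted p = 0.0354, adjusted p = 0.472), or -0.22 without aligned 3. IL6 and its receptor subunit IL6ST differed by 0.42 ± 0.28 and 0.09 ± 0.07, with adjusted p of 0.563 and 0.623 in limma. With the mean of probe sets IL6ST differed by 0.28 (limma unadjusted p = 0.141). The IL6 difference was 0.71 when aligned 2 was left out (limma unadjusted p = 0.0188) and 0.23 when aligned 3 was, and omitting random 1 or random 3 gave 0.64 or 0.25. The count of 2 in this list was 4 without aligned 2 and 4 when dim probe sets were retained, 1 without aligned 3, with the stricter filter and with the replicate block, and 0 without random 2 or random 3. With the block the unadjusted p of STAT3 was 0.0597 in limma.

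The transcription factors listed for mesenchymal glioma beside C/EBP beta, STAT3 among them, were all lower in sign on aligned fibers. Of 5 tested, 4 had an unadjusted p under 0.05 in limma, all lower, against 5.81% of all genes, and the median was -0.34. STAT3 was among these 4 and was also the lower gene of the cytokine list. FOSL2, an AP-1 subunit, read 10.47, 10.29 and 9.96 on aligned and 10.61, 10.71 and 10.48 on random fibers, a difference of -0.36 ± 0.14 (SE). ZBTB18, a repressor, read 9.46, 9.36 and 9.06 against 9.52, 9.67 and 9.68, a difference of -0.33 ± 0.12. Neither overlapped between the groups, and aligned 3 was the lowest array in both. Without aligned 3 the differences of FOSL2 and ZBTB18 were -0.22 and -0.21, with unadjusted p of 0.0662 and 0.0434 in limma.

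BHLHE40, a clock-related repressor, read 10.38, 10.69 and 10.26 against 10.60, 10.96 and 10.79, with overlap, and differed by -0.34 ± 0.14 (SE). The adjusted p of FOSL2, ZBTB18 and BHLHE40 was 0.469, 0.463 and 0.472 in limma. WWTR1, the remaining gene tested, differed by -0.20 ± 0.17 (SE; limma unadjusted p = 0.283, adjusted p = 0.646), or -0.01 without aligned 3. As the list holds repressors, a shared sign is not a shared direction of the expression programme, which was not tested. CEBPB thus had the opposite sign to STAT3, FOSL2, BHLHE40 and ZBTB18, and CEBPD the same sign, a description of values whose difference was not tested. The count of 4 was 2 without aligned 3, where the median was -0.22, 1 without random 3 and 0 without random 2.

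Targets of combined C/EBP and ATF elements had the largest median of the 7 lists, 0.94, and it was 0.53 without aligned 3. All 11 genes were tested and had a positive sign, and 7 had an unadjusted p under 0.05, all higher, against 4.72% of all genes. In limma 0 of the 11 passed at an adjusted p under 0.05. The list shares ATF3 and DDIT3 with the zipper partners and TRIB3 with the regulators. The count of 7 was 4 without random 2 and 3 without random 3, and 6 without aligned 3.

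ASNS, asparagine synthetase, read 10.72, 11.43 and 12.14 on aligned and 10.66, 10.19 and 10.11 on random fibers, without overlap, and aligned 1 and random 1 were again close. Its log2 difference was 1.11 ± 0.33 (SE; limma unadjusted p = 0.0116, adjusted p = 0.463), and 0.75 without aligned 3. CHAC1, which degrades glutathione, read 7.20, 8.91 and 9.85 against 7.14, 7.39 and 7.28. Aligned 1 lay within the random values of CHAC1, and the other aligned arrays were far above them. CHAC1 differed by 1.39 ± 0.58 (limma adjusted p = 0.472), by 2.11 without aligned 1 and by 0.79 without aligned 3.

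NUPR1, a stress-induced chromatin regulator, differed by 1.20 ± 0.45 (SE), or 0.66 without aligned 3, and its groups overlapped. GADD45A, a growth arrest gene, read 10.63, 10.74 and 11.29 against 10.28, 10.16 and 10.22 and differed by 0.67 ± 0.16. The cystine transporter SLC7A11 read 12.00, 12.11 and 12.12 against 11.92, 11.67 and 11.75, and its difference of 0.30 ± 0.09 was 0.28 without aligned 3. In limma the adjusted p was 0.463 for all 3 of these genes. GADD45A and SLC7A11 did not overlap between the groups.

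Of the 11 targets 8 had a RefSeq promoter window, and 4 of them held the composite element TGATGNAAN. The 8 genes had 13 windows, and over all windows the share with the element was 3.61%. As the list is one of targets of such elements, nothing is read from that count. The sites are shown beside that of CEBPG, because they let the letters be set against the expression values. Each is read 5′ to 3′ on the strand of the element, with the element in capitals and 8 bases on each side.
CEBPG, chr19:33374063-33374087, plus strand: gcggcgtcTGATGCAACctgccggc
ASNS, chr7:97872460-97872484, minus strand: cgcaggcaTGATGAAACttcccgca
CHAC1, chr15:40953253-40953277, minus strand: ggcaggagTGATGCAACggcagggg
ATF3, chr1:212565208-212565232, plus strand: ggtcaggaTGATGGAAGgctgtcat
HERPUD1, chr16:56931957-56931981, minus strand: gcacgggcTGATGCAACccgccgcg
The element lay at -42, -68, -210, -191 and -177 from the start of CEBPG, ASNS, CHAC1, ATF3 and HERPUD1, counted at the end far from the start. CEBPG, CHAC1 and HERPUD1 held the same letters, TGATGCAAC, and HERPUD1, a gene of endoplasmic reticulum degradation, differed by 0.13 ± 0.19 (SE; limma adjusted p = 0.787). The differences of CHAC1, CEBPG and HERPUD1 were 1.39, 0.60 and 0.13, and a link between the element and expression was not tested.

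Of 9 inflammatory targets of C/EBP beta and delta tested, 3 were higher and 0 lower at an unadjusted p under 0.05, against 4.72% and 5.81% of all genes, and the median was 0.13. That median was 0.37 without random 1, 0.21 without aligned 1, 0.04 without aligned 3 and 0.28 with the stricter filter. The 3 were the neutrophil chemokines CXCL8, CXCL3 and CXCL2. CXCL8 read 10.40, 9.30 and 10.70 on aligned and 9.26, 7.98 and 7.69 on random fibers, so that its lowest aligned value lay just above its highest random value. The differences of CXCL8, CXCL3 and CXCL2 were 1.82 ± 0.48, 1.14 ± 0.22 and 0.92 ± 0.21 (SE), and in limma their adjusted p was 0.463.

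The other 6 inflammatory targets tested, IL6, CCL2, SOD2, SERPINA3, CSF3 and HP, differed by -0.80 to 0.42, and the smallest adjusted p among them was 0.563 in limma. CCL2, a monocyte chemokine, had the sign opposite to the neutrophil chemokines. It read 10.24, 9.04 and 7.26 on aligned 1, 2 and 3 and 10.41, 10.13 and 8.41 on random 1, 2 and 3, with overlap. The CCL2 value was lower on aligned fibers for each of the 3 numbers. Its log2 difference of -0.80 ± 0.79 (SE; limma adjusted p = 0.681) had an unadjusted p of 0.0129 with the replicate block, which made the list 3 higher and 1 lower. It was -0.01 when aligned 3 was left out and -1.50 when aligned 1 was, and omitting random 1 or random 3 gave -0.42 or -1.43.

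CXCL1, PTGS2, C3, LCN2, PTX3, TNFAIP6 and ORM1 were too dim to be kept, and SAA1 and SAA2 had no probe set of their own. The count of 3 was 1 with the stricter filter and 1 without probe sets that can match several transcripts.

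Differentiation targets of C/EBP alpha were mostly too dim in these cells. Of 11 genes of fat, liver and myeloid cells 2 were kept, LPL and CSF3R. CSF3R, the receptor of granulocyte colony-stimulating factor, read 6.16, 6.45 and 6.17 on aligned and 5.99, 6.09 and 5.80 on random fibers, without overlap. It differed by 0.30 ± 0.11 (SE; limma unadjusted p = 0.0304, adjusted p = 0.466). It was the 1 gene of the list with an unadjusted p under 0.05, against 10.5% of all genes. Without aligned 2, random 1 or random 3 it missed that threshold. With dim probe sets retained the count was 2. PPARG, FABP4, ADIPOQ, LEP, PCK1, ALB, CSF1R, MPO and ELANE were not kept.

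**Figure D4:**
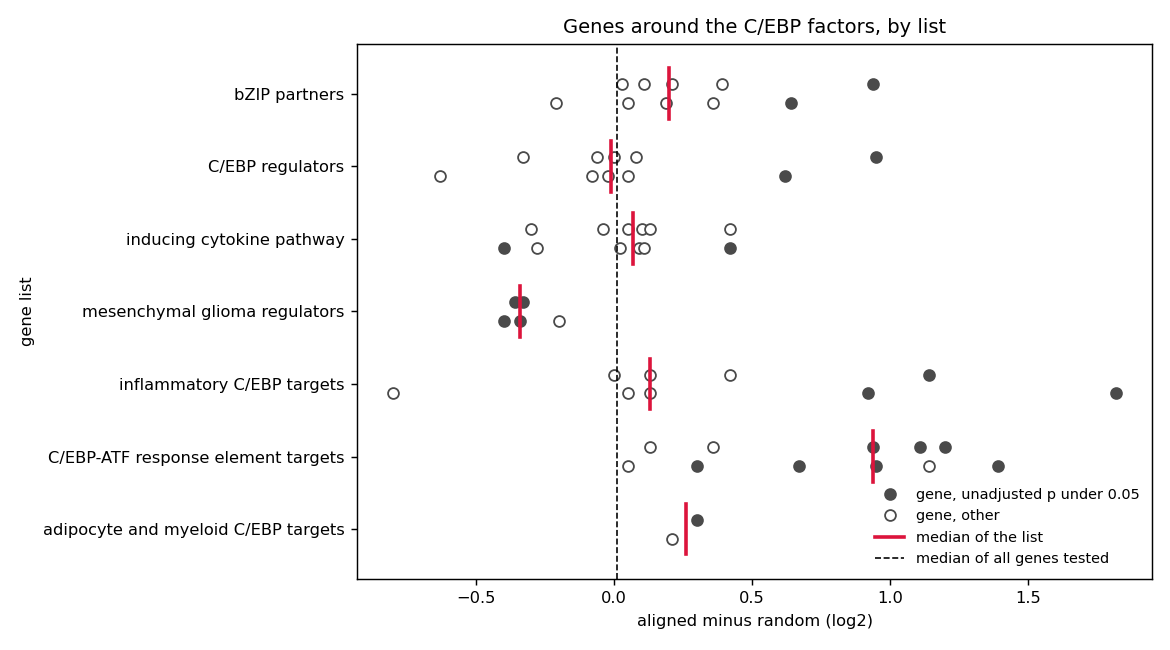
Aligned minus random difference in log2 units of each tested gene in the 7 lists, filled where the unadjusted limma p was under 0.05, with the list's median as a red line and the median of all genes tested as a dashed line. Targets of C/EBP-ATF response elements have the highest median at 0.94 and the mesenchymal glioma regulators the lowest at -0.34; no gene passed adjustment over all genes.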

How the data were processed

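The deposited table holds log2 values for 54675 probe sets on 6 arrays, an RMA summary by the authors according to the submitters' processing notes. The RMA version is not given in the sources used here. RMA corrects background, equalises the arrays and summarises each probe set, and sorted values deviated by at most 0.07 between arrays. The 62 control probe sets were set aside, and 27621 of 54613 were kept by the filter. A gene was represented by its kept probe set with the highest mean.

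Aligned minus random was fitted without covariate in R 4.3.3 with limma 3.58.1 (lmFit, eBayes), on genes and on probe sets, two-sided, with Benjamini-Hochberg adjustment. Figures used matplotlib 3.10.9. The code was tested on simulated data. The number of arrays limits the precision, with a median SE of 0.10.

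The members and gene lists were chosen with earlier results of these data known. Named were all C/EBP probe sets, list members at an unadjusted p under 0.05, up to 2 of the smallest p in lists with none, and the 3 genes most like each C/EBP gene.

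Deviations from group means correlated by 0.369, 0.322 and 0.109 between arrays numbered 1, 2 and 3. As each exceeded 0.1, arrays of equal number were set side by side as pairs, on these values and not on a label. Arrays of unequal number were not compared in this way. The main fit was unpaired, and the replicate number entered as a block in an alternative only. Alternatives were the block on this number, the 75th percentile in place of the median as filter, no filter, median centring, repeated quantile normalization, a trended robust prior, the mean of probe sets, omission of probe sets with suffix _s_at or _x_at, and each array left out.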

Additional observations from a re-analysis of the deposited data

How the results depend on the processing

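The 6 kept C/EBP probe sets kept their sign under each alternative that gave a value, which was largely fixed in advance. The kept probe sets of CEBPG, CEBPD and CEBPZ did not overlap between the groups, so omitting an array could not reverse their sign. It could do so only for CEBPA and CEBPB. The filters, the block and the trended prior leave the mean difference of a probe set unchanged. The members were also chosen with this contrast known, so nothing is read from the constant sign. Leaving out 1 array at a time gave 0.22 to 0.61 for CEBPB, 0.37 to 0.77 and 0.41 to 0.79 for CEBPG 225527_at and 204203_at, -0.50 to -0.32 for CEBPD, 0.11 to 0.17 for CEBPZ and -0.20 to -0.08 for CEBPA. CEBPD had no value without suffixed probe sets. Genes called stayed at 0 throughout and probe sets at 0, with 1 when aligned 1 was left out. The 1303 genes at an unadjusted p under 0.05 were 851 with the stricter filter and 624 to 2491 with 1 array left out. The 18 pathway genes at that threshold were 8 to 25 with 1 array left out. With the replicate number as a block there were 20 pathway genes, 1687 genes and 0 called, and the block changed no adjusted call. Probe sets at an unadjusted p under 0.05, 2676, were 4698 with no filter, 1380 with the stricter filter, 1707 without suffixed probe sets, and 1262 to 4812 with 1 array left out. The median of the C/EBP regulators, -0.01, turned to 0.01 with the mean of probe sets, 0.03 without aligned 3 and 0.02 without random 1, within -0.06 to 0.03 with 1 array left out. That of the cytokine pathway, 0.07, turned to -0.01 without random 3, within -0.01 to 0.08. The median of the composite element targets was 0.64 to 0.95 over the alternatives with all arrays and 0.53 to 1.16 with 1 left out. The causes were not tested. Detection calls were not used here, so the filter rests on rank within an array.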

Other observations

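Genes beside the C/EBP loci in the RefSeq gene table were read after the main values were seen. CEBPZOS, which lies next to CEBPZ, had 3 probe sets, and all 3 were lower on aligned fibers by the mean, opposite in sign to CEBPZ. They differed by -0.35 ± 0.13 (1564381_s_at), -0.43 ± 0.16 (229746_x_at) and -0.53 ± 0.20 (231819_at) log2 units (SE). Probe set 231819_at read 8.41, 7.85 and 7.72 on aligned 1, 2 and 3 and 8.25, 8.59 and 8.75 on random 1, 2 and 3, so that aligned 1 lay among the random arrays. Of the 3, the aligned arrays of 1564381_s_at alone lay below all random arrays, by a gap of 0.03. Between the arrays numbered 1 the differences were -0.03, 0.07 and 0.16, and between those numbered 3 they were -0.77, -0.81 and -1.03. CEBPA-DT, the transcript next to CEBPA, differed by 0.08 ± 0.08 and overlapped between the groups, as did CEBPA. The difference in sign between CEBPZ and CEBPZOS was not tested.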
